A study of Mus musculus with 8 samples.

Results

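Embryoid bodies (EBs) in which the promyelocytic leukaemia protein (PML) had been knocked down were compared with wild-type (WT) EBs at day 4 of differentiation, a comparison of 4 of the 8 arrays of the study. They were chosen by their sample titles, 2 arrays labelled PML KD EBs D4 and 2 labelled WT EBs D4. Both groups came from the feeder-free mouse line CGR8 of embryonic stem cells (ESCs), with the donor strain 129P2/OlaHsd and the background strain C57BL/6 in the labels and passages 5 to 13. The PML KD cells carried a lentiviral pLKO.1 vector that expresses a short hairpin RNA against PML and had been selected with puromycin. A virus of the empty vector is also mentioned, but the controls are labelled WT, and no label says whether they had been infected and selected. Leukaemia inhibitory factor (LIF) was withdrawn, and EBs were kept as hanging drops for 2 days and then in suspension. The other 4 arrays hold undifferentiated cells of both kinds at day 0, and the PML KD arrays among them stand apart, with the Y-linked gene Eif2s3y at 5.20 and 4.95 where all other arrays lay between 9.86 and 10.20. Uty, also Y-linked, was near background on those same PML KD arrays only. Whether paired arrays stand for separate cultures, clones or infections is unlabelled, so each p-value reflects array-to-array spread that may be technical.

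PML builds the nuclear bodies that bear its name, protein assemblies that recruit SUMO-modified partners such as DAXX and SP100. EBs are aggregates in which ESCs leave pluripotency. Their outer layer becomes primitive and then visceral endoderm, an epithelium that secretes serum proteins and apolipoproteins and takes up nutrients by endocytosis, while the inner cells pass through an epiblast-like state. In the embryo, visceral endoderm also sends signals to the epiblast, and trophoblast, which forms the placenta, is a lineage that ESCs seldom enter.

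Values are log2 signals of Affymetrix gene arrays. Differences are PML KD minus WT (log2) ± the limma standard error (SE), with n = 2 arrays in each group, and a gene is said to have risen or fallen when its Benjamini-Hochberg adjusted p over 19938 genes was under 0.05. Correlations were 0.996 to 0.997 within groups and 0.983 between WT and PML KD EBs. At this threshold 5705 genes changed (28.6%), 3354 higher (16.8%) and 2351 lower (11.8%), and the count was 3376 without PML KD array 1 and 3535 without PML KD array 2. At least 2-fold changes were found for 347 genes (1.74%), 230 of them higher (1.15%) and 117 lower (0.587%). The median over all genes was -0.023, from -0.096 in the dimmest 20% of genes to 0.12 in the brightest 20%, and quantile normalization brought these to 0.0026 and 0.016. Of the changed genes 58.8% were higher, against 80.2% when arrays were shifted to a common median over all probe sets, which moved the median of all genes to 0.092. After quantile normalization 51.0% of the changed genes were higher (2799 against 2693 lower), so the excess of rises depended on the scaling. The labelled cells were checked against defining markers. All 7 pluripotency markers and all 9 primitive and visceral endoderm markers were measured, and 5 of 6 for mesendoderm and mesoderm. Of these 5, 2 rose, 1 fell and 2 did not pass, with a median of 0.16, and they summed to 1694 to 1745 in WT and 1338 to 1352 in PML KD EBs, where Eomes was the member that fell. The 5 neuroectoderm markers summed to 1118 to 1186 and 1232 to 1304.

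**Figure D1:**
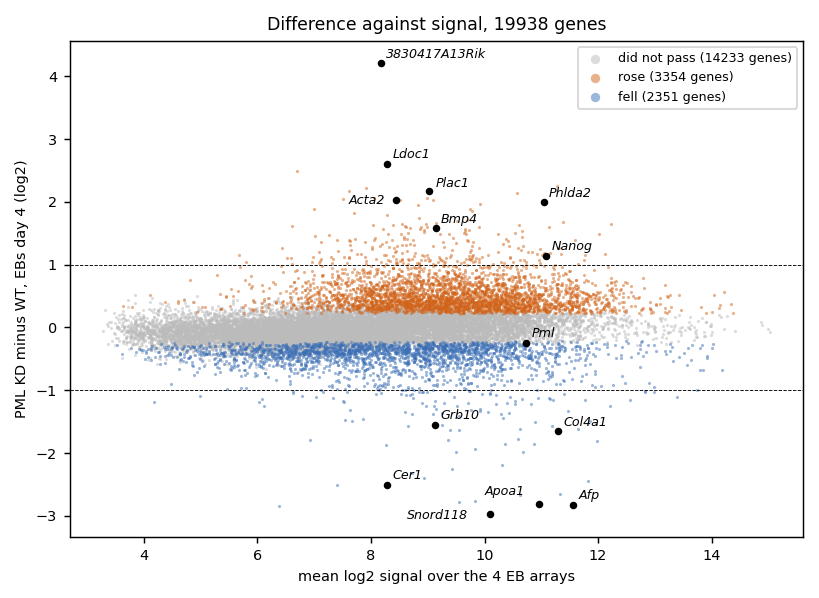
Difference between PML KD and WT EBs at day 4 (log2, vertical axis) against the mean log2 signal over the 4 EB arrays (horizontal axis), 1 point per gene. Orange genes rose (3354), blue genes fell (2351), grey genes did not pass, dashed lines mark 2-fold, and named points run from Snord118 at -2.97 to 3830417A13Rik at 4.21.

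Pml itself was read first. It lay at 10.88 and 10.84 in WT EBs and at 10.54 and 10.69 in PML KD EBs. Both PML KD arrays were thus below both WT arrays, as for 33.5% of all genes. The difference was -0.24 ± 0.08 (adjusted p = 0.0451), a 1.18-fold reduction of the transcript. Each fit on 7 of the 8 arrays lost the call (adjusted p = 0.0527 to 0.243), and the size ran from -0.13 with a median shift over all probe sets (adjusted p = 0.246) to -0.38 after quantile normalization (adjusted p = 0.00938). At day 0 the same difference was -0.60 ± 0.08, and the differences of the days differed (0.36, adjusted p = 0.0247). Protein was not measured on these arrays. Of 20 measured components of PML nuclear bodies, 3 rose (15.0%), 2 fell (10.0%) and 15 did not pass, with a median of -0.013. These shares are near those of all genes, 16.8% and 11.8%. After a median shift over all probe sets 6 rose. The rises numbered 1 without WT array 1 or without either PML KD array. Daxx was at -0.080 ± 0.09 (adjusted p = 0.539) and Sp100 at -0.020 ± 0.08 (adjusted p = 0.885). Pias1, a SUMO ligase, rose by 0.63 ± 0.10 (adjusted p = 0.00205).

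Visceral endoderm transcripts were lower in PML KD EBs. All 8 measured apolipoprotein and lipid-loading genes fell, with a median of -1.97, and 7 of them at least 2-fold. Of 21 measured serum protein genes 13 fell and 1 rose (median -0.95), and of 21 genes of endocytosis and the brush border 15 fell and 1 rose (median -0.73). Over the 3 lists 36 of 50 measured genes fell, 26 of them at least 2-fold, and 2 rose, where 11.8% of all genes fell. The summed linear signal of the 9 endoderm markers was 37987 to 38258 in WT and 13157 to 13679 in PML KD EBs, and all 9 fell. At day 0 these markers summed to 2126 to 2276 in WT and 1664 to 1707 in PML KD ESCs. Cubn (-1.68), Dab2 (-1.45), Gata6 (-0.63) and Hnf4a (-0.27) were already lower at day 0, and the other markers did not pass there. In bulk RNA fewer cells of a type and less RNA per cell cannot be told apart.

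The promoters of the strongest members are shown here because the genes moved together, with letters of short motifs that a search found in capitals. The windows run from 250 bases before to 50 bases after the start in RefSeq (GRCm38.p6), each read along the gene. The motifs, searched on both strands, were GATA (the letters GATA after A or T and before A or G), an HNF1 core (GTTAAT), an HNF4 site (CAAAGTCCA), a TFAP2 site (GCCNNNGGC) and a TATA box (TATAAA). Overlaps between motifs were allowed.
Afp, chr5:90490464-90490763, plus strand: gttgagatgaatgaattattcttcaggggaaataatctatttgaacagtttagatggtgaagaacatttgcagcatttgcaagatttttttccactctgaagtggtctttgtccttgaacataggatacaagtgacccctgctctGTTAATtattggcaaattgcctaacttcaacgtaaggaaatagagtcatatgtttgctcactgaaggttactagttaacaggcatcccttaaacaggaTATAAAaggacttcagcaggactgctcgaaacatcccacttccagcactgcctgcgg
Apoa1, chr9:46228380-46228679, plus strand: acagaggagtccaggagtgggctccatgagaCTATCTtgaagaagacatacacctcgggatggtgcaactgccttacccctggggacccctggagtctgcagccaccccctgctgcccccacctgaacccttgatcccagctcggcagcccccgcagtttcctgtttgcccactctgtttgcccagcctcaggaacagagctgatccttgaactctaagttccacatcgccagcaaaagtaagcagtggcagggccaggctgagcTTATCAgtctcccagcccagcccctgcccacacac
Apoa4, chr9:46240594-46240893, plus strand: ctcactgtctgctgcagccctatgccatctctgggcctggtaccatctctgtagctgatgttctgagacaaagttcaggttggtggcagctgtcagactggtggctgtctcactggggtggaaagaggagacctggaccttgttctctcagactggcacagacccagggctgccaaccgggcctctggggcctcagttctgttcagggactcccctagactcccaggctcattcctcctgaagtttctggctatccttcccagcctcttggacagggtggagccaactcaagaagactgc
The Afp window holds an HNF1 core and a TATA box, the Apoa1 window 2 GATA matches, and the Apoa4 window none of these letters. Of 34 visceral endoderm genes that fell and were looked up, 29 had a window. A GATA match was found in 9 of these 29 windows (31%) and in 29.8% of all 32851 windows. The HNF1 core was found in 4 of the 29 (13.8%) and in 7.1% of all windows, and the HNF4 site in 1 of the 29 (3.45%) and in 0.475%. A match is a run of letters and not a measured binding site.

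Afp encodes alpha-fetoprotein, the main serum protein of the early embryo. It was at 12.97 on both WT arrays and at 10.17 and 10.12 in PML KD EBs, 7.07-fold lower (-2.82 ± 0.08, adjusted p = 3.06e-06). At day 0 it had been between 6.14 and 6.35 on all 4 arrays, so PML KD EBs still held a clear signal at day 4. Apoa1, the main protein of high-density lipoprotein, was at 12.35 and 12.39 in WT and at 9.68 and 9.44 in PML KD EBs (-2.81 ± 0.12, adjusted p = 7.27e-06). Apob, the scaffold of very low-density lipoprotein, was at 12.65 and 12.67 against 9.97 and 10.05 (-2.65 ± 0.10). Mttp, which loads lipid onto the product of Apob, fell by 1.22 ± 0.09. Apoa4 fell by 2.78 ± 0.10, Apom fell by 2.31 ± 0.11, Apoa2 by 1.63 ± 0.08 and Apoc1 by 1.10 ± 0.08. Apoe, which many cell types make, had the smallest fall of this list, 0.68 ± 0.07.

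Carriers of small molecules in serum followed. Transthyretin (Ttr), which carries thyroid hormone, was at 13.01 and 12.77 in WT EBs and at 11.11 and 11.05 in PML KD EBs (-1.81 ± 0.23, adjusted p = 0.000756). Rbp4, the retinol carrier, fell by 1.86 ± 0.08 and transferrin (Trf), the iron carrier, by 1.63 ± 0.10. The fibrinogen subunit gene Fgg fell by 1.19 ± 0.10. On the uptake side, the receptor pair amnionless (Amn) and cubilin (Cubn) fell by 1.86 ± 0.15 and 0.95 ± 0.10. Cubn remained at 12.47 and 12.55 in PML KD EBs, against 13.46 on both WT arrays. Dab2, a clathrin adaptor for these receptors, fell by 1.25 ± 0.17. It was at -0.56 when its probe sets were averaged, and at -1.04 without passing in the workbook after quantile normalization (adjusted p = 0.0675). The lysosomal proteases Ctsh, Lgmn and Ctsl fell by 1.62 ± 0.09, 1.02 ± 0.07 and 1.02 ± 0.07, and the folate receptor Folr1 by 1.00 ± 0.07. For each of these genes both PML KD arrays lay below both WT arrays, as for 33.5% of all genes, while 31.8% of all genes had both above.

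**Figure D2:**
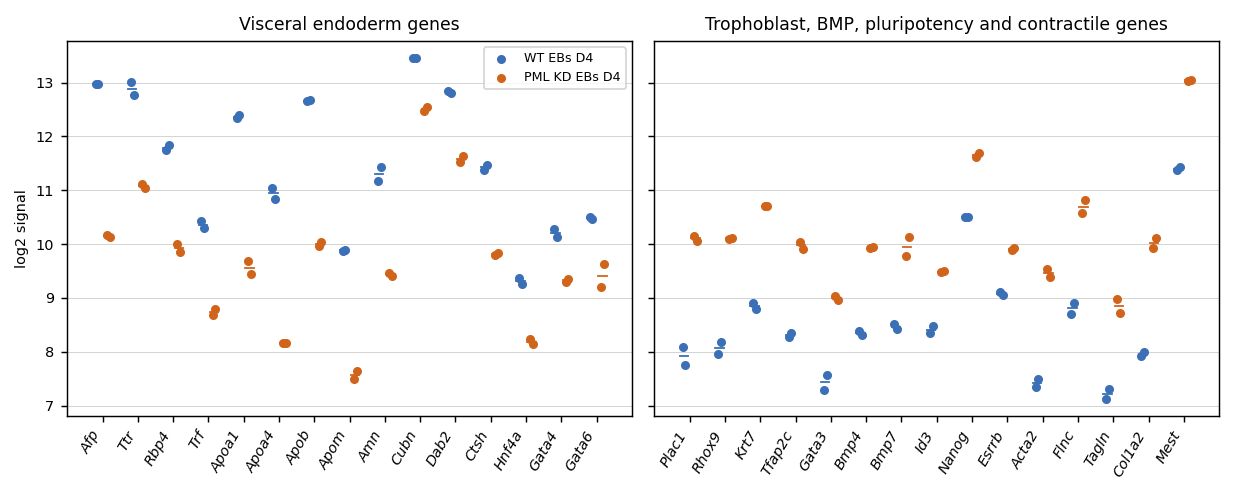
Log2 signal (vertical axis) of 15 visceral endoderm genes and 15 genes that rose, with 1 point per EB array and a bar at the mean of the 2 arrays of a group, WT in blue and PML KD in orange. The groups do not overlap for any gene shown, and Afp moves from 12.97 to 10.17 and 10.12 while Plac1 moves from 8.09 and 7.76 to 10.15 and 10.06.

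Transcription factors of the endoderm had a smaller median than the secretion lists. Of 21 measured, 13 fell and 3 rose, with a median of -0.41. This count of falls was 8 after a median shift over all probe sets, 8 without WT array 2 or PML KD array 1, and 7 without PML KD array 2. Hnf4a, the nuclear receptor that drives apolipoprotein genes, was at 9.37 and 9.25 in WT and at 8.23 and 8.14 in PML KD EBs (-1.12 ± 0.09, adjusted p = 8.76e-05). Gata4 and Gata6, which specify primitive endoderm, fell by 0.88 ± 0.08 and 1.06 ± 0.15. Foxq1 and Foxa2, both forkhead factors, fell by 0.91 ± 0.08 and 0.73 ± 0.12. Nr2f2, an orphan nuclear receptor, went the other way, from 6.60 and 6.97 to 8.66 and 8.58 (1.83 ± 0.17, adjusted p = 0.000216), a difference of 3.11 in the workbook. Of 23 genes of the basement membrane and of parietal endoderm, the endoderm that lines the yolk cavity, 16 fell and 2 rose (median -0.46). Type IV collagen chains led them. Col4a1 was at 12.11 and 12.13 against 10.38 and 10.57 (-1.65 ± 0.09), and Col4a2 fell by 1.57 ± 0.11. The laminin chain gene Lama1 fell by 0.94 ± 0.07 and Pth1r, the receptor of a hormone that promotes parietal endoderm, by 1.07 ± 0.11.

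Several of the 20 largest falls, ranked over genes with a name other than a Gm or Rik number, belong to no endoderm list used here. Prss12, a secreted serine protease gene, was at 11.29 and 11.16 in WT and at 8.44 and 8.47 in PML KD EBs (-2.77 ± 0.11). The pepsinogen gene Pga5 fell by 2.67 ± 0.10, the immune receptor gene Pilra by 2.51 ± 0.11, the conjugate exporter gene Abcc2 by 2.40 ± 0.11 and the mucin gene Muc13 by 2.26 ± 0.09. Cer1, a secreted antagonist of Nodal and BMP that anterior visceral endoderm makes, was at 9.55 and 9.52 against 6.97 and 7.08, 5.68-fold lower (-2.51 ± 0.08, adjusted p = 4.48e-06).

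Signalling genes were then read from ligand to target. In the BMP pathway 14 of 23 measured members rose and 0 fell, where 16.8% of all genes rose, and the median was 0.42. Bmp4, a ligand that patterns mesoderm and germ cells, was at 8.38 and 8.32 in WT EBs and at 9.92 and 9.94 in PML KD EBs (1.58 ± 0.07, adjusted p = 1.08e-05). Bmp7 was at 8.51 and 8.42 against 9.78 and 10.12 (1.49 ± 0.12). Of 4 Id genes, direct BMP targets that block differentiation factors, Id3 rose by 1.08 ± 0.08, Id2 by 0.77 ± 0.09 and Id1 by 0.56 ± 0.08, and Id4 was at 0.16 ± 0.10 and did not pass. The workbook did not call Id1 (adjusted p = 0.0814). Fst, a secreted binder of activin and BMP, rose by 0.70 ± 0.07. At an unadjusted p under 0.05 limma gave 15 rises and 1 fall. The workbook had 10 rises and 0 falls, and quantile normalization 13 and 0.

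In the Nodal pathway 8 of 21 members rose and 3 fell, against 5 and 1 in the workbook. Nodal itself did not pass, at 9.47 and 9.44 in WT and 9.47 and 9.42 in PML KD EBs (-0.0095 ± 0.07, adjusted p = 0.937). Its feedback inhibitors moved apart. Lefty2 was at 7.77 and 7.84 against 9.14 and 9.06 (1.29 ± 0.11), while Lefty1 was at 9.21 and 9.12 against 8.81 and 8.72 (-0.40 ± 0.08), a fall that the workbook did not call. The ligand gene Gdf3 rose by 0.91 ± 0.08, the receptor gene Acvr2a by 0.44 ± 0.08, the processing protease gene Pcsk6 by 0.61 ± 0.11 and the transducer gene Smad3 by 0.76 ± 0.08. Cer1, another secreted antagonist, gave the largest fall of the list, while Dand5 was at -0.11 and did not pass.

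In FGF signalling 10 of 25 measured genes fell and 4 rose. Fgfr1, the main FGF receptor of ESCs, was at 10.14 and 10.17 against 11.20 and 11.26 (1.07 ± 0.07) and Fgfr2 rose by 0.66 ± 0.08, while Fgfr4 fell by 0.72 ± 0.09 and Fgfr3 by 0.49 ± 0.08, which the workbook did not call (adjusted p = 0.086). Spry4, an inhibitor of the pathway, fell by 0.99 ± 0.09, the phosphatase gene Dusp4 by 0.72 ± 0.07 and the transcription factor gene Etv1 by 0.91 ± 0.10. Dusp14, another phosphatase gene, rose by 0.49 ± 0.08. Spry2 (-0.69), Etv4 (-0.65), Flrt3 (-0.58) and Spry1 (-0.47) were also among the genes that fell. Dusp6, Etv5, Il17rd and the 3 Spred genes, also induced by ERK or acting on it, did not pass, with differences from -0.26 for Etv5 to 0.19 for Il17rd. The call of Etv5 depended on the processing. It fell after quantile normalization and when its probe sets were averaged, and its difference reached -0.74 over the alternatives. Il17rd rose after a median shift over all probe sets.

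The remaining signalling lists were mixed, in a fit where 16.8% of all genes rose and 11.8% fell. Of 32 Wnt genes 6 rose (18.75%) and 5 fell (15.62%), near the shares of all genes. The workbook had 3 and 3, or 4 and 6 after quantile normalization. Fzd2, a Wnt receptor gene, was nevertheless among the 20 largest rises, at 8.91 and 8.97 against 10.84 and 10.97 (1.96 ± 0.09). Wnt7b rose by 0.70 ± 0.13, and Wnt11 and Porcn, whose product lipidates Wnt ligands, fell by 0.60 ± 0.10 and 0.58 ± 0.09. Differences over the Wnt list ran from -0.60 for Wnt11 to 1.24 for another gene of Wnt secretion. Of 22 retinoic acid genes 3 rose (13.64%) and 4 fell (18.18%), or 4 and 3 after a median shift over all probe sets. Rdh10, a maker of retinal, fell by 0.89 ± 0.08, the retinoic acid hydroxylase gene Cyp26a1 fell by 1.00 ± 0.11, and the receptor gene Rxra rose by 0.57 ± 0.11. Of 22 LIF and STAT3 genes 5 rose and 3 fell, or 5 and 7 after quantile normalization, and 3 rose without PML KD array 2. The workbook had 3 and 1. Both LIF receptor chains were higher, Lifr by 0.59 ± 0.07 and Il6st by 0.65 ± 0.08, as was the feedback gene Socs2, by 0.97 ± 0.07. Of 27 immediate early genes 7 rose and 2 fell, with 4 rises without PML KD array 2 and 11 after a median shift over all probe sets. The phosphatase gene Dusp5 rose by 1.13 ± 0.08, and Ier3 and Atf3 fell by 0.77 ± 0.09 and 0.75 ± 0.10.

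Pluripotency transcripts were more often higher than lower in PML KD EBs. Of 31 core and naive pluripotency genes 17 rose (54.84%) and 6 fell (19.35%), with a median of 0.33. Over all genes 16.8% rose and 11.8% fell, so both shares of the list were above those of all genes. The workbook had 10 rises and 1 fall, or 10 and 6 after its quantile normalization (median 0.14). Quantile normalization of the array values gave 15 rises and 8 falls (median 0.19). The 7 pluripotency markers, 4 of which rose and 1 fell, summed to 27422 to 27718 in WT and 33421 to 33916 in PML KD EBs. Nanog was at 10.50 and 10.51 in WT and at 11.61 and 11.69 in PML KD EBs, 2.21-fold higher (1.15 ± 0.07, adjusted p = 3.92e-05). Both values lay below the 12.32 to 12.84 of the day 0 arrays. Nr5a2, a nuclear receptor of naive ESCs, was at 7.51 and 7.52 against 8.82 and 8.81 (1.30 ± 0.07). Esrrb rose by 0.83 ± 0.07, the alkaline phosphatase gene Alpl by 1.16 ± 0.07 and the adhesion gene Jam2 by 1.55 ± 0.13. Zfp42, a marker of naive cells, rose by 0.68 ± 0.07 here and was at -0.16 in the workbook. Pou5f1, the factor required for pluripotency, was at 12.003 and 11.988 against 11.79 and 11.72 (-0.24 ± 0.08, adjusted p = 0.0484), a call that was lost when any EB array was left out (adjusted p from 0.109 to 0.198). Sox2, its partner, was at 0.094 ± 0.08 (adjusted p = 0.424). Tet2, a 5-methylcytosine oxidase of naive cells, fell by 0.49 ± 0.09.

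Of 20 formative and primed epiblast genes 3 rose and 5 fell, or 7 and 3 after a median shift over all probe sets. Without WT array 2 or PML KD array 1 there were 3 falls, and 8 after quantile normalization. The neural cadherin gene Cdh2 fell by 0.65 ± 0.10, and Otx2, an epiblast factor, was at -0.13 ± 0.08 (adjusted p = 0.255). Of 24 primitive streak genes, which mark the onset of gastrulation, 7 fell and 4 rose. Eomes, a T-box factor of streak and visceral endoderm, was at 9.97 and 10.06 against 8.86 and 8.94 (-1.11 ± 0.08, adjusted p = 5.12e-05). Lhx1 and Pdgfra fell by 0.91 ± 0.10 and 0.85 ± 0.14. Cer1, Lhx1 and Foxa2, which fell in this list, are genes of visceral endoderm as well. Mixl1, a gene of the streak itself, was at 0.16 ± 0.09 (adjusted p = 0.23).

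Trophoblast and placental genes were higher. Of 25 measured 19 rose and 2 fell, 8 of the rises were at least 2-fold, and the median was 0.67. Leaving out any array gave 19 rises. Plac1, an X-linked placental gene, was at 8.09 and 7.76 in WT EBs and at 10.15 and 10.06 in PML KD EBs, 4.53-fold higher (2.18 ± 0.15, adjusted p = 5.45e-05). The X-linked homeobox genes Rhox9 and Rhox6 rose by 2.03 ± 0.12 and 1.39 ± 0.10. Krt7, a keratin of trophoblast and other simple epithelia, was at 8.90 and 8.79 against 10.71 and 10.70 (1.86 ± 0.09). Among the regulators, Tfap2c was at 8.28 and 8.35 against 10.05 and 9.90 (1.66 ± 0.09), Gata3 rose by 1.57 ± 0.12, Gata2 by 1.25 ± 0.12 and Elf5 by 0.62 ± 0.11. Eomes and Cdx2, which act early in the trophoblast of the embryo, were lower. Cdx2 was at 7.61 and 7.79 against 7.26 and 7.35 (-0.39 ± 0.11, adjusted p = 0.032), a call that the workbook did not make and that was lost without WT array 2 (adjusted p = 0.157), PML KD array 1 (0.154) or PML KD array 2 (0.0854). The summed linear signal of the 6 trophoblast markers was 1468 to 1535 in WT and 3820 to 3914 in PML KD EBs.

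The promoters of the trophoblast genes with the largest rises in the RefSeq table are given in the same way. Plac1 has 2 starts there and the one listed first is shown.
Plac1, chrX:53240061-53240360, minus strand: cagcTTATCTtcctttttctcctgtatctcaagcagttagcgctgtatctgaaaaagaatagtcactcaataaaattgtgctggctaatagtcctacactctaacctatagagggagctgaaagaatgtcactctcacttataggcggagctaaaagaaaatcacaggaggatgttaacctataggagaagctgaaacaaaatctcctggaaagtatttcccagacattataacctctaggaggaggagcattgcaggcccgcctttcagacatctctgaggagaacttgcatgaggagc
Krt7, chr15:101412153-101412452, plus strand: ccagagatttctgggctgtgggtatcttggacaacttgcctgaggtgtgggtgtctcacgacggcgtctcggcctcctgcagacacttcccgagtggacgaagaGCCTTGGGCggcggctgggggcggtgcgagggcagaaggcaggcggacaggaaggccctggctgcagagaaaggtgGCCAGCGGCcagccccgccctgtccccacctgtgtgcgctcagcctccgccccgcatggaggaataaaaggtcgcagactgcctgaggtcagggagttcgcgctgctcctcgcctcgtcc
The Krt7 window holds 2 TFAP2 matches and the Plac1 window 1 GATA match. Windows were found for 14 of 19 trophoblast genes that rose. A TFAP2 match was found in 3 of the 14 (21.4%), in 7 of the 29 visceral endoderm windows (24.1%) and in 16.6% of all windows.

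Of 31 keratin, claudin and adhesion genes of epithelia 15 rose, 0 fell and 16 did not pass. Krt7, Krt8, Krt18 and Tfap2a, 4 of those that rose, stand in the trophoblast list too. The median was 0.35, and the workbook had 15 and 1. At an unadjusted p under 0.05 limma gave 18 and 0. The keratin gene Krt8 was at 11.46 and 11.48 against 12.36 and 12.40, and its partner Krt18 at 12.08 and 12.15 against 12.84 and 12.85. The desmosome gene Dsp rose by 0.87 ± 0.08 and the claudin gene Cldn4 by 0.84 ± 0.08. Cdh1, which encodes E-cadherin, did not pass, with 12.79 and 12.91 in WT and 12.84 and 12.93 in PML KD EBs (0.037 ± 0.08, adjusted p = 0.756).

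The X chromosome held more of the large rises than other chromosomes. Of 739 genes tested there 24 rose at least 2-fold (3.25%), against 1.15% of all genes and at most 1.70% on any autosome, while 6 fell at least 2-fold (0.812%). Of the 20 largest rises 5 are X-linked, and 0 of the 20 largest falls. Ldoc1 was at 6.957 and 7.001 in WT and at 9.47 and 9.71 in PML KD EBs, 6.10-fold higher (2.61 ± 0.10, adjusted p = 4.9e-06). Mbnl3, a splicing factor gene, was at 6.75 and 6.86 against 9.09 and 8.96 (2.22 ± 0.12), and Tmem47, a membrane protein gene, at 9.48 and 9.52 against 11.58 and 11.70 (2.14 ± 0.08). The largest rise of all genes, a Rik number picked out after its value was seen, was also X-linked: 3830417A13Rik was at 6.13 and 6.00 in WT and at 10.32 and 10.22 in PML KD EBs (4.21 ± 0.19). The median difference of all X-linked genes was -0.011, or 0.045 after quantile normalization, and 0.095 over the 397 with a mean log2 signal of at least 7.

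Y-linked genes were present in both EB groups. Eif2s3y was at 10.20 and 10.08 in WT and 9.99 and 9.86 in PML KD EBs (-0.22 ± 0.10, adjusted p = 0.147), and Uty at 9.34 and 9.31 against 9.14 and 9.03. Kdm5d and Usp9y were at 0.038 ± 0.10 and 0.024 ± 0.08, and Zfy1 rose by 0.65 ± 0.10. Over the list 1 of 5 genes rose. In the workbook after quantile normalization Zfy1 did not pass (adjusted p = 0.0743), while Eif2s3y was at -1.27 and fell (adjusted p = 0.00118), so 0 rose and 1 fell. Eif2s3y passed too, at -0.32, after quantile normalization (adjusted p = 0.0336) and, at -1.16, in the unscaled workbook (adjusted p = 0.0115). Comparisons of day 4 with day 0 rest on the day 0 PML KD arrays, which stand apart in both Eif2s3y and Uty.

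**Figure D3:**
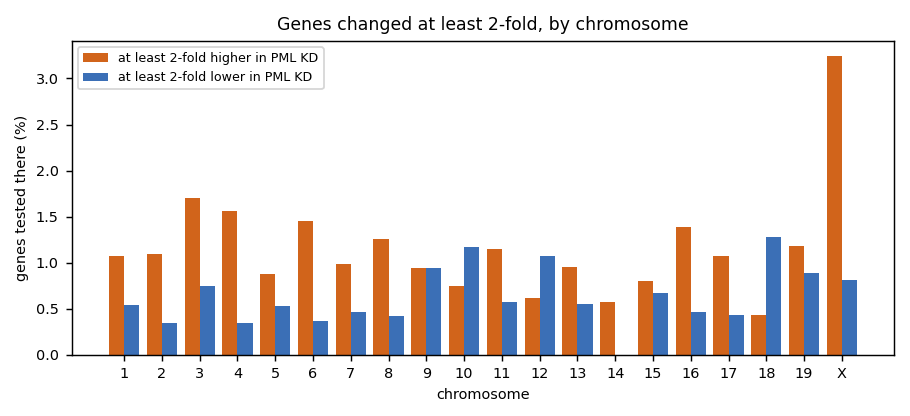
Share of the genes tested on each chromosome (vertical axis, %) that were at least 2-fold higher (orange) or at least 2-fold lower (blue) in PML KD EBs at day 4 and passed the test. The X chromosome has the tallest orange bar, 3.25%, and chromosome 3 follows at 1.70%.

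Actin and smooth muscle genes were higher, with a median of 0.79. Of 25 measured 19 rose, 11 of them at least 2-fold, and 0 fell, and the rises numbered 13 in the workbook. At an unadjusted p under 0.05 limma gave 21 rises and 0 falls. Acta2, smooth muscle actin, was at 7.35 and 7.50 in WT and at 9.53 and 9.38 in PML KD EBs, 4.09-fold higher (2.03 ± 0.10, adjusted p = 1.21e-05). Flnc, a filamin that crosslinks actin, was at 8.71 and 8.90 against 10.57 and 10.82 (1.89 ± 0.12). Tagln, an actin-binding protein gene, rose by 1.63 ± 0.11, the intermediate filament gene Des by 1.40 ± 0.09, the caldesmon gene Cald1 by 1.28 ± 0.09 and the tropomyosin gene Tpm2 by 1.16 ± 0.08. Of 22 matrix genes of fibroblasts 5 rose and 1 fell, with a median of 0.088. Col1a2 led them, at 7.92 and 7.99 against 9.93 and 10.11 (2.06 ± 0.11), while Col1a1, which encodes the other chain of type I collagen, rose by 0.52 ± 0.09. In the workbook their differences were 3.93 and 1.45. The summed linear signal of 7 fibroblast markers was 1400 to 1414 in WT and 2272 to 2427 in PML KD EBs. Of these markers 3 were higher, 1 was lower and 3 did not pass, with a median of 0.15, and Col1a2 had the largest rise. Their part in the contractile result was not tested. Of 21 genes of the epithelial to mesenchymal switch 9 rose and 2 fell (median 0.31), with 5 rises without WT array 2 or PML KD array 2 and 5 in the workbook. The cadherin gene Cdh11 rose by 1.02 ± 0.14 and the membrane protease gene Mmp14 by 0.73 ± 0.08, Twist1 fell by 0.64 ± 0.09, and Vim was at 0.050 ± 0.07 (adjusted p = 0.649).

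Mesoderm and neural lists had medians near 0, between 0.013 and 0.045. Of 20 cardiac and lateral mesoderm genes 5 rose and 3 fell, against 3 and 3 in the workbook, or 3 and 4 after its quantile normalization, and Myl4, an early cardiac myosin gene, rose by 1.13 ± 0.13. The 4 cardiomyocyte markers summed to 916 to 919 in WT and 810 to 812 in PML KD EBs. Of 24 blood and endothelial progenitor genes 8 rose and 3 fell. Cdh5, an endothelial cadherin gene, rose by 0.81 ± 0.13 and the embryonic globin gene Hbb-bh1 by 1.05 ± 0.10, while Runx1, a factor of definitive blood, fell by 0.59 ± 0.10. The 4 blood markers summed to 466 to 495 and 486 to 507. Of 28 early neural genes 6 rose and 2 fell, or 5 and 5 after quantile normalization and 3 and 1 in the workbook. Nes and Pax6 rose by 0.76 ± 0.12 and 0.41 ± 0.07, and Sox1, which marks the first neural cells, was at 0.17 ± 0.11 (adjusted p = 0.311).

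**Figure D4:**
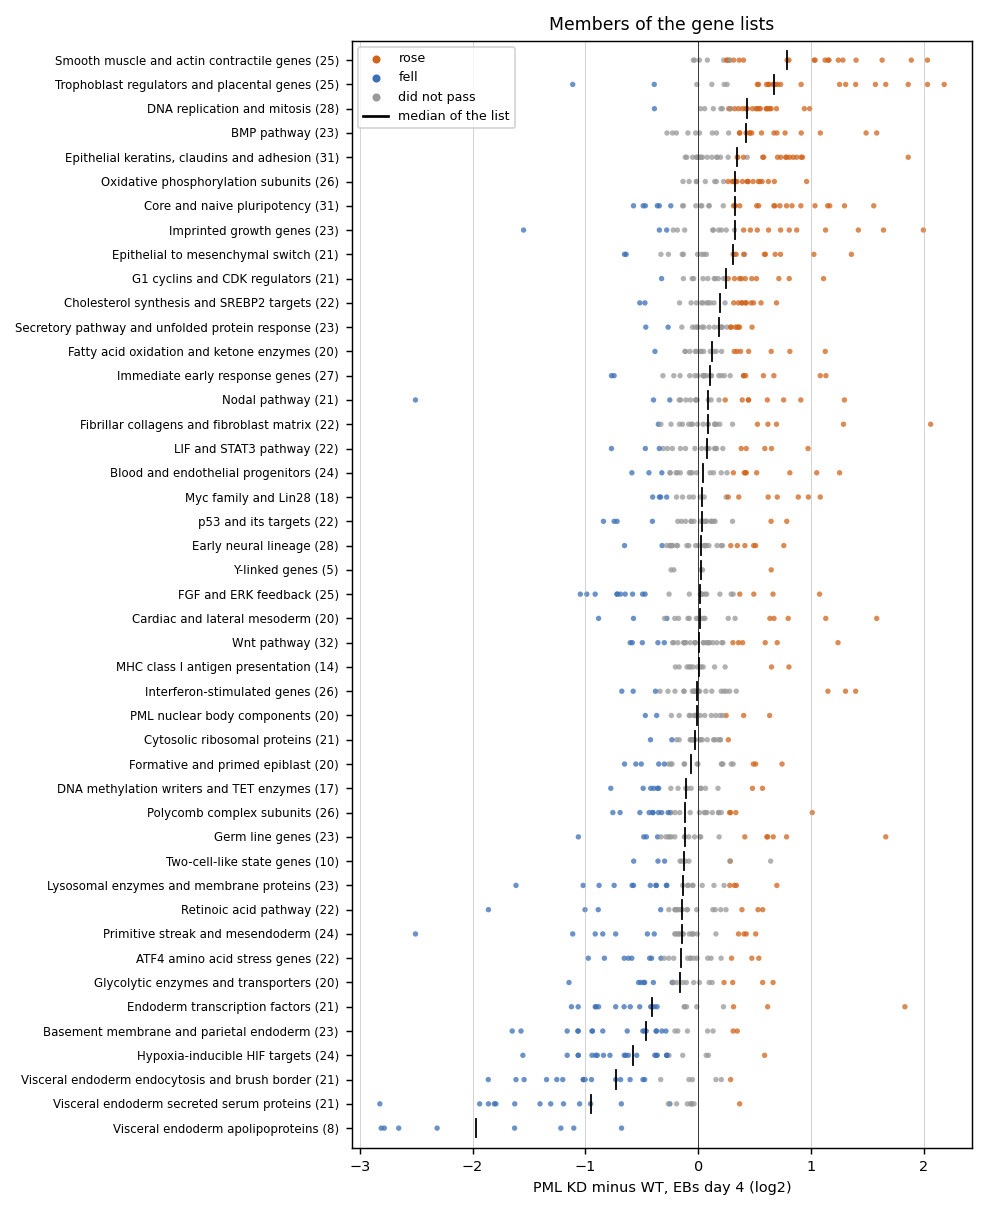
Differences between PML KD and WT EBs at day 4 (log2, horizontal axis) for the members of 45 gene lists, 1 point per measured gene and a black bar at the median, with the number measured in brackets. Lists are ordered by median, from apolipoproteins at -1.97 to contractile genes at 0.79, and orange, blue and grey points rose, fell or did not pass.

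Of 23 measured imprinted genes that control growth of the embryo and placenta 11 rose and 3 fell, 4 and 1 of them at least 2-fold. Phlda2, a maternally expressed gene that limits placental growth, was at 10.02 and 10.06 in WT and at 12.078 and 11.995 in PML KD EBs (2.00 ± 0.08, adjusted p = 4.9e-06). Mest, a paternally expressed gene, was at 11.37 and 11.43 against 13.03 and 13.05 (1.64 ± 0.08). Nnat rose by 1.42 ± 0.08, Plagl1, a regulator of other imprinted genes, by 1.13 ± 0.09, Ndn by 0.87 ± 0.08 and the growth factor gene Igf2 by 0.73 ± 0.13. Grb10, a growth inhibitor gene, was at 9.89 and 9.91 against 8.34 and 8.36, 2.92-fold lower (-1.55 ± 0.07, adjusted p = 8.72e-06).

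Among chromatin regulators, 6 of 17 genes of DNA methylation fell and 2 rose, against 3 and 2 in the workbook. Dnmt3l, the cofactor of the de novo methyltransferases, was at 11.57 and 11.59 against 10.85 and 10.77 (-0.78 ± 0.08). Dnmt1 and Uhrf1, which copy methylation at replication, rose by 0.57 ± 0.08 and 0.48 ± 0.07. Of 26 Polycomb genes 10 fell and 4 rose, or 6 and 7 after a median shift over all probe sets. The falls numbered 6 without WT array 1 or PML KD array 2 and 5 without PML KD array 1, and the workbook had 4. Rybp fell by 0.76 ± 0.08 and Phc3 by 0.69 ± 0.11, both of Polycomb repressive complex 1, while Phf19, an accessory subunit of complex 2, rose by 1.01 ± 0.11. Of 10 measured genes of the 2-cell-like state 1 rose and 3 fell, but 0 fell without either WT array or PML KD array 2 and 1 without PML KD array 1 or in the workbook. Of 23 germ line genes 6 rose and 4 fell.

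Genes of DNA replication and mitosis were higher. Of 28 measured 21 rose and 1 fell, with a median of 0.43, and 18 rose and 1 fell after quantile normalization, which removes the rise of bright genes as a class (median 0.12 in the brightest 20%). The subunits of ribonucleotide reductase, which makes deoxynucleotides, led the list, Rrm1 at 10.30 and 10.23 against 11.19 and 11.23 (0.94 ± 0.09) and Rrm2 at 10.31 and 10.40 against 11.30 and 11.38 (0.99 ± 0.08). The helicase subunit gene Mcm7 rose by 0.69 ± 0.08 and the mitotic kinase gene Plk1 by 0.62 ± 0.07. Of 21 G1 cyclins and their regulators 10 rose and 1 fell, against 6 and 0 in the workbook. Ccnd3 was at 9.12 and 9.34 against 10.34 and 10.33 (1.11 ± 0.09), Cdk6 rose by 0.71 ± 0.09, and Cdkn1c, an imprinted inhibitor of these kinases, rose as well, by 0.81 ± 0.08. Of 18 genes in the list of the Myc family and Lin28, 7 rose and 4 fell, or 6 and 6 after quantile normalization. Myc was at 8.05 and 8.22 against 9.19 and 9.25 (1.08 ± 0.11), and Lin28b, which blocks let-7 maturation, rose by 0.89 ± 0.10. Of 22 genes of p53 and its targets 2 rose (9.09%) and 4 fell (18.18%), against 16.8% and 11.8% of all genes. After a median shift over all probe sets the counts were 5 and 4. Pmaip1, a trigger of apoptosis, fell by 0.75 ± 0.10.

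Targets of the hypoxia-inducible factor HIF were lower. Of 24 measured 18 fell and 1 rose, with a median of -0.58, and the falls numbered 13 in the workbook. Ndufa4l2, which lowers mitochondrial respiration in hypoxia, was at 9.91 and 10.16 in WT and at 8.58 and 8.38 in PML KD EBs (-1.55 ± 0.13, adjusted p = 0.000105). The collagen hydroxylases P4ha1 and Plod2 fell by 1.16 ± 0.11 and 0.94 ± 0.08, the histone demethylase gene Kdm3a by 0.91 ± 0.07 and the vascular growth factor gene Vegfa by 0.78 ± 0.07. Hif1a itself was the member that rose, from 10.03 and 9.89 to 10.51 and 10.59 (0.59 ± 0.08). Of 20 glycolytic genes 7 fell and 4 rose, against 4 and 3 in the workbook. Pfkp, a phosphofructokinase, fell by 1.15 ± 0.08, Hk2 by 0.51 ± 0.08 and Pgk1 by 0.40 ± 0.07, while the glucose transporter gene Slc2a1 rose by 0.57 ± 0.07. P4ha1, P4ha2 and Plod2 also stand in the basement membrane list.

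Mitochondrial genes moved the other way. Of 26 subunits of oxidative phosphorylation 18 rose and 0 fell, with a median of 0.33. After quantile normalization 15 rose and 0 fell, and the workbook had 9 and 0. Without PML KD array 1 there were 10 rises, and at an unadjusted p under 0.05 limma gave 19 and 0. Ndufb9, a subunit of complex I, was at 11.69 and 11.70 against 12.68 and 12.62 (0.96 ± 0.07). Atp5c1, of the ATP synthase, rose by 0.62 ± 0.07 and Uqcrc2, of complex III, by 0.55 ± 0.09. Of 20 genes of fatty acid oxidation 7 rose and 1 fell. Slc25a20 and Cpt1a, which carry fatty acids into mitochondria, rose by 1.12 ± 0.09 and 0.81 ± 0.09. The ribosomal proteins of the cytosol had 1 rise and 2 falls among 21, or 6 and 1 after a median shift over all probe sets. The workbook called 0 of them, and there was 1 fall when any WT array or either PML KD EB array was left out.

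Other metabolic and stress lists were smaller. Of 22 cholesterol synthesis genes 10 rose and 2 fell, 6 and 3 after quantile normalization, 6 and 1 in the workbook and 6 rises without WT array 1 or PML KD array 1, with Sqle higher by 0.49 ± 0.07 and the feedback gene Insig1 lower by 0.52 ± 0.08. Of 22 genes induced by ATF4 in amino acid stress 8 fell and 3 rose, against 5 and 1 in the workbook, and the transcription factor gene Ddit3 fell by 0.97 ± 0.08. Of 23 secretory pathway genes 7 rose and 2 fell, but 2 and 2 after quantile normalization and 4 and 1 in the workbook. Its rises numbered 4 without either WT array and 2 without either PML KD array. Of 23 lysosomal genes 11 fell and 4 rose, against 7 and 3 in the workbook and 13 and 1 after quantile normalization. Those that fell include the proteases Ctsh and Ctsl of the visceral endoderm list as well as Ctsz (-0.88 ± 0.08) and the sialidase gene Neu1 (-0.75 ± 0.08), while Tfeb, the regulator of lysosome genes, rose by 0.70 ± 0.08. Of 26 interferon-stimulated genes 3 rose and 3 fell (11.54% each), where 16.8% of all genes rose and 11.8% fell. Quantile normalization gave 5 and 4. The 3 that rose are neighbouring genes of 1 family, Ifitm1 (1.39 ± 0.09), Ifitm2 (1.15 ± 0.08) and Ifitm3 (1.30 ± 0.09), which are also expressed in ESCs without interferon. Bst2 and Irf1 fell by 0.68 ± 0.07 and 0.58 ± 0.10. Of 14 genes of antigen presentation on MHC class I, 2 rose (14.29%) and 0 fell, and 3 and 0 at an unadjusted p under 0.05 in limma. Those that rose were Erap1 (0.80 ± 0.09) and Tapbp (0.65 ± 0.11).

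Precursors of microRNAs were measured too, and 3 clusters are described, chosen after values were seen. The arrays read precursor or primary transcripts and not mature microRNAs. Mature sequences (RefSeq, GRCm38.p6) are shown because the clusters share target-recognising seeds, bases 2 to 8, in capitals.
miR-302b-3p: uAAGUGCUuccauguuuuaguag
miR-302c-3p: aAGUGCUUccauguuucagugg
miR-302d-3p: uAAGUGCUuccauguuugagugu
miR-367-3p: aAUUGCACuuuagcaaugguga
miR-18a-5p: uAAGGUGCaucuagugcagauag
miR-20a-5p: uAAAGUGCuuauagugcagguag
miR-20b-5p: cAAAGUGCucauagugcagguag
miR-106a-5p: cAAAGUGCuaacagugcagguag
miR-19b-3p: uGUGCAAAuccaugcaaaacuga
miR-92a-3p: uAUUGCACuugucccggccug
miR-363-3p: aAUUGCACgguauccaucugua
The seed AAGUGCU is shared by miR-302b-3p and miR-302d-3p, and AAAGUGC by miR-20a-5p, miR-20b-5p and miR-106a-5p. The seed AUUGCAC is shared across clusters, by miR-367-3p of the first and by miR-92a-3p and miR-363-3p of the others.

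The Mir302 cluster on chromosome 3 was higher in PML KD EBs, with 4 of 5 precursors up. Mir302a was at 5.92 and 5.70 in WT and at 7.47 and 7.38 in PML KD EBs (1.62 ± 0.10, adjusted p = 3.94e-05), and Mir302c was at 6.40 and 6.38 against 7.47 and 7.07 (0.88 ± 0.15). Mir302b rose by 0.84 ± 0.16, a call lost in the workbook (adjusted p = 0.0693). Mir302d rose by 0.87 ± 0.20, a call lost without PML KD array 2 (adjusted p = 0.0938) and without WT array 1 (adjusted p = 0.0625). Mir367 overlapped between the groups (0.22 ± 0.15, adjusted p = 0.309). The Mir17-92 cluster on chromosome 14 and its paralog Mir106a-363 on the X chromosome went the other way. Of 6 and 5 probe sets measured 4 fell in each and 0 rose, or 2 in each after quantile normalization, and at an unadjusted p under 0.05 limma gave 4 and 5 falls. Mir18 was at 9.17 and 9.20 against 8.45 and 8.34 (-0.79 ± 0.10). Mir363 was at 8.72 and 8.57 against 7.61 and 7.69 (-0.995 ± 0.110), and Mir19b-2 at 7.12 and 7.19 against 6.09 and 6.12 (-1.05 ± 0.08). Over all 296 precursors measured 66 fell and 8 rose, with a median of -0.16, against -0.096 in the dimmest 20% of all genes.

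**Figure D5:**
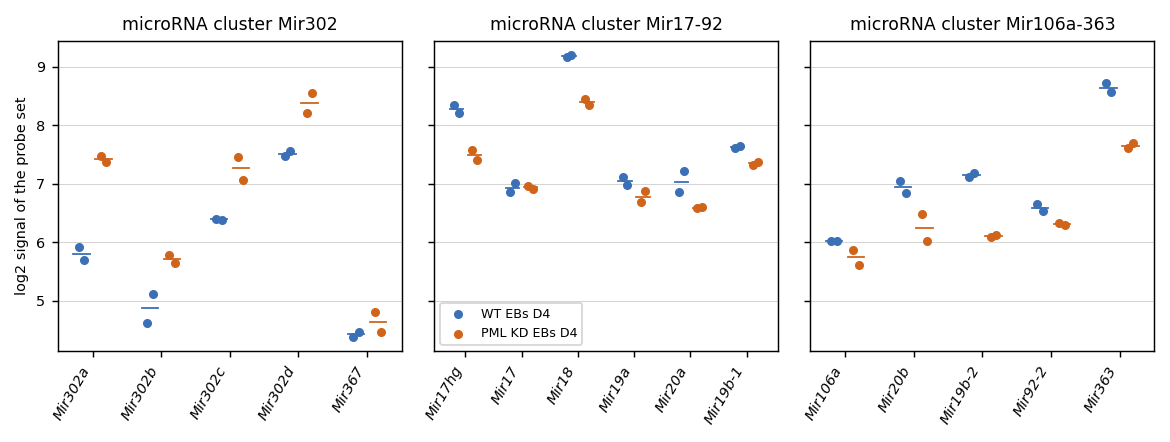
Log2 signal (vertical axis) of the probe sets of 3 microRNA clusters, 1 point per EB array and a bar at the mean of the 2 arrays of a group, WT in blue and PML KD in orange. Mir302a rises from 5.92 and 5.70 to 7.47 and 7.38, and Mir363 falls from 8.72 and 8.57 to 7.61 and 7.69. Mir17hg is the host transcript of Mir17-92.

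Small nucleolar RNAs, which guide modification of ribosomal RNA, were lower. Of 51 measured 36 fell, 12 of them at least 2-fold, and 1 rose, with a median of -0.48, and after quantile normalization 35 fell. Snord118, the U8 RNA needed for processing of large-subunit ribosomal RNA, was at 11.66 and 11.49 in WT and at 8.59 and 8.62 in PML KD EBs, the largest fall of all ranked genes (-2.97 ± 0.09, adjusted p = 3.06e-06). Snora33 was at 13.07 and 13.01 against 10.63 and 10.57 (-2.45 ± 0.07) and Snora75 fell by 2.18 ± 0.11. At day 0 the difference had the opposite sign for these 3 RNAs, 0.84 for Snord118 and 1.10 for each of the others. Many of these RNAs lie in introns of host genes, and their probe sets do not tell the finished RNA from unspliced host transcript.

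Further large rises were spread over genes of different roles. The serpin gene Serpinb9e was at 5.34 and 5.55 in WT and at 7.94 on both PML KD arrays (2.50 ± 0.14). Prtg, a cell surface protein of the early epiblast and neural tube, was at 10.13 and 10.16 against 12.35 and 12.45 (2.25 ± 0.11). The proenkephalin gene Penk rose by 2.07 ± 0.12, Anxa1, a calcium-dependent membrane binder, by 2.05 ± 0.08, the adhesion gene Ceacam1 by 2.03 ± 0.08, the scavenger receptor gene Colec12 by 1.95 ± 0.13 and the guidance factor gene Sema3a by 1.89 ± 0.11. All 20 largest rises and 20 largest falls kept their direction under the 20 alternatives run, which include leaving out each array. They were picked for large differences on these same arrays, so this does not describe the other called genes.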

How the data were processed

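RNA of 8 samples was measured on Affymetrix MoGene 1.0 ST arrays. The authors deposited a table of linear intensity values for 35556 probe sets and a workbook of log2 values per Ensembl gene, and Transcriptome Analysis Console is named per the submitters' processing notes. The sources used here do not state how background was corrected or arrays normalized. The deposited intensity values were taken to log2, of 35556 probe sets 21789 had 1 gene symbol, 1621 several and 12146 none, and of 999 genes with more than 1 probe set the brightest by mean was kept, leaving 19938 genes. limma 3.58.1 in R 4.3.3 was fitted on 4 group means over 8 arrays, and Benjamini-Hochberg adjusted p-values under 0.05 counted as changed. The fit was tested on simulated arrays with independent noise. It called 66 of 66 genes changed by 1.0 (log2), 38 of 67 changed by 0.5 and 2 of 67 changed by 0.3, with 7 false calls. Far fewer genes were changed there than were called here, so these rates do not carry over to the data. Replicate numbers did not pair the arrays, since correlations of their deviations ran from -0.082 to 0.085. The workbook, matched for 19318 genes (correlation 0.887 to 0.929 per array), was an alternative, and its 4 group mean columns were not used. Named genes were Pml, the 20 largest rises and falls, up to 6 called members per list by smallest adjusted p, up to 3 called against their list, and a short set of lineage genes. Members and lists were chosen with earlier results of these data known. The number of arrays limits the precision. Promoter and microRNA sequences came from RefSeq tables.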

Additional observations from a re-analysis of the deposited data

Results flagged for a closer look

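The difference between PML KD and WT cells was compared between day 4 and day 0 with an interaction term in limma, and it differed for 10089 of 19938 genes (50.6%). Among genes that passed on both days in opposite directions, other than those with only a Gm or Rik kind of number, the 5 with the largest such differences, day 4 minus day 0, were Snord118 (-3.81), AU015836 (3.78), Kansl1 (-3.69), Snora33 (-3.54) and Tuba3a (3.51). The day 4 difference of Kansl1 was -1.77, but -0.89 when its probe sets were averaged and -0.53 in the workbook. The day 0 PML KD arrays had Eif2s3y at 5.20 and 4.95, where the other 6 arrays lay between 9.86 and 10.20. Uty was near background on the same day 0 PML KD arrays. The part of this in the day difference was not tested.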

How the results depend on the processing

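Over 20 alternatives, 180 of the 192 named genes that passed kept their call and direction under every one, 12 lost the call under at least 1, and 1 of these, Zfp42, turned, to -0.16 in the workbook as deposited and -0.28 in the workbook after quantile normalization. Of 46 lists, 21 kept a count within 1.5 times throughout. Named genes were picked largely by size of difference or by adjusted p in these same data. The share of them that kept their call therefore does not describe all called genes. The workbook as deposited called 3272 genes, 700 of them at least 2-fold, and 650 were at least 2-fold after its quantile normalization. Leaving out 1 array gave 3376 to 5858 changed genes, 347 to 367 of them at least 2-fold, and 8175 to 9964 genes whose difference changed with the day. Pml stayed below 0 without passing at -0.24 in a fit of the 4 EB arrays and with a replicate block (adjusted p = 0.0614), at -0.23 in the workbook as deposited, at -0.13 after a median shift over all probe sets, and at -0.32 to -0.17 when 1 array was left out. The cause was not tested. The replicate block, on numbers that did not pair the arrays, called 5395 genes. Both scalings over all probe sets were chosen after seeing the data, and the median shift there called 6270 genes, 80.2% of them higher. A group left with 1 array was assumed to vary like the others. Workbook differences over 1.5 times those reported were Acvr2a 0.83, Dusp14 0.82, Elf5 1.18, Fgfr2 1.08, Fgfr4 -1.10, Igf2 1.19, Irf1 -0.93, Lhx1 -1.43, Nes 1.49, Pax6 0.98, Phf19 1.97, Runx1 -1.01 and Wnt11 -1.001. After its quantile normalization those below that ratio were Esrrb 0.54, Id1 0.26, Krt8 0.51, Slc2a1 0.37 and Tfeb 0.39, and Id1 did not pass there. Pou5f1 ran from -0.40 after quantile normalization to -0.13 after a median shift over all probe sets.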
